A study of Cucumis melo with 6 samples.

Results

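In the leaf of a melon mutant with changes in 2 LHP1 genes, 161 of the 28299 annotated genes combined a measured wild-type level with a level at least 16 times higher in the mutant. They were selected on the measured values themselves. The mean raw count over the 3 wild-type (WT) libraries had to be above 3, and the mean level over the 3 mutant libraries had to be at least 16 times the mean WT level. Levels are given as CPM, the count of a gene multiplied by 1000000 and divided by the total count of its library. The difference between genotypes is therefore a description of the chosen genes, called members below, and carries no test.

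Both genotypes are melon, Cucumis melo, of the Charentais type. WT is the monoecious CharMONO inbred line, which bears male and female flowers separately on the same plant. The mutant, lhp1ab, is the Cmlhp1ab double mutant, which carries in the same CharMONO line the chemically (EMS) induced changes G1970A in Cmlhp1a and C1930T in Cmlhp1b, with positions counted in genomic sequence from the ATG of each gene. Leaves came from glasshouse plants under long days (16 h light, 8 h dark; 27 °C by day, 21 °C by night), and 3 libraries were made per genotype. The replicates are called biological, but whether each is a separate plant or a pool is not stated, so p-values refer to the spread among these libraries, which may be partly technical.

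LHP1 is a chromodomain protein, studied mostly in Arabidopsis, that binds histone H3 carrying the Polycomb mark H3K27me3. That mark is laid on genes held silent in a given tissue, many of them regulators of development and genes used in other organs or stages. In Arabidopsis, loss of LHP1 raises the expression of a part of the marked genes and gives early flowering and curled leaves. Histone marks were not measured in these libraries, so which members carry the mark in melon leaf is not known here.

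The WT libraries held 20551374 to 22366054 counts and the lhp1ab libraries 15335390 to 17647188. Where a gene had no read, up to 3 counts remain possible, equal to 0.134 to 0.146 CPM for WT libraries and 0.170 to 0.196 CPM for lhp1ab libraries; these floors and the intervals on counts cover counting error only. The identifiers come from an automated annotation without names or products, and 0 of them occur in the reference gene table used here. Roles, sequences, leaf markers and the levels of the mutated genes were therefore not examined, and members are described by position, exon structure and level. A short form of each identifier is used, in which Chr2g52.3 stands for maker-Chr2-exonerate_est2genome-gene-52.3. Coordinates are on release 4.0 of the melon genome. In bulk leaf, more RNA per cell and more cells of an expressing type cannot be told apart.

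Most members were scarce transcripts in WT leaf, with a few at higher levels, and in lhp1ab the members made up more than 2% of the counts. Together they took 0.0504%, 0.0526% and 0.0551% of the counts of the 3 WT libraries, and 2.85%, 2.64% and 2.64% of the counts of lhp1ab replicates 1, 2 and 3. The mean share was 0.0527% ± 0.00235 in WT and 2.71% ± 0.124 in lhp1ab (SD, n = 3). The share was low in every WT library and high in every lhp1ab library, and the groups did not overlap, as the choice of members requires. The 5 most abundant members of each library held between 51.9% and 56.4% of the members' counts, so the summed share speaks mainly of a few genes.

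The mean WT level of a member ranged from 0.154 to 95.1 CPM with a median of 0.658, and the mean lhp1ab level from 2.79 to 4568 CPM with a median of 25.3. The ratio of the means ran from 16.03 to 821 with a median of 30.5. It was at least 100 in 22 members, at least 32 in 73 and under 20 in 40. The middle 50% of members lay between 20.1 and 51.9, and the largest ratios formed a thin upper tail. The WT side rests on few reads in many of them: 65 members had a WT mean of 10 counts or less, 18 had a mean above 100, and 2 had a WT library at 0.

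**Figure D1:**
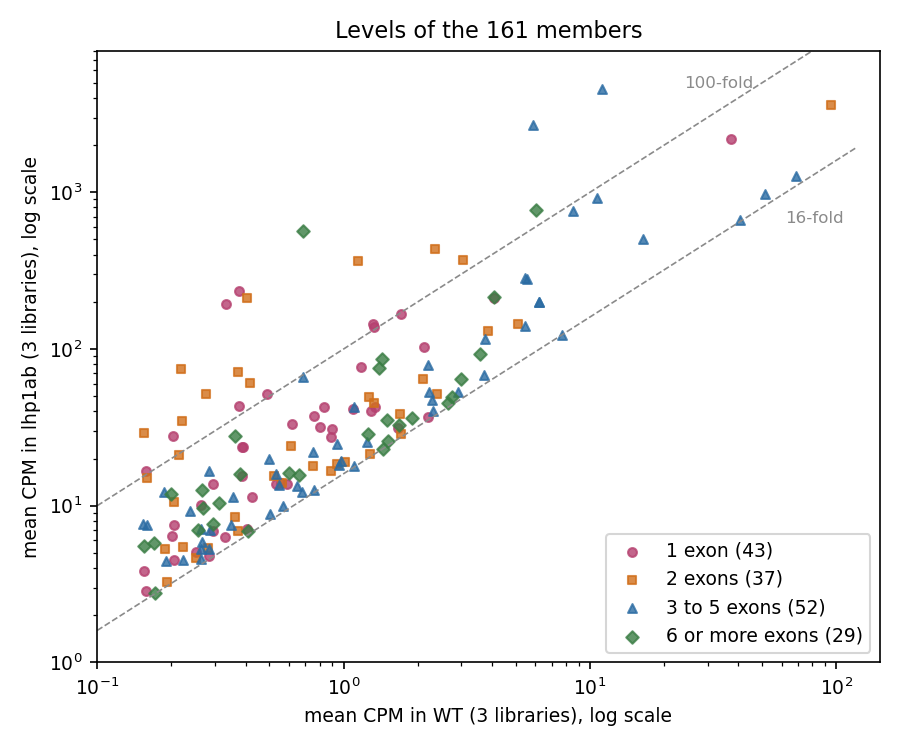
Mean CPM of each of the 161 members in WT (horizontal) and in lhp1ab (vertical), both on log scales, with 1 point per gene and symbols by exon number. Dashed lines mark ratios of 16, the limit used to choose the genes, and 100, which 22 members reach.

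Set among all 17988 genes that passed the filter on low counts and were tested, on a scale of CPM per kilobase of exon that allows genes to be compared, the members stood low in WT and spread over most of the range in lhp1ab. Their median percentile was 4.69 in WT and 65.4 in lhp1ab. In WT, 145 members lay in the lowest 25% of tested genes and 3 in the highest 25%. In lhp1ab, 68 lay in the highest 25%, 32 in the top 5%, and 11 in the lowest 25%. No member was among the 500 highest genes of any WT library, whereas 28 were in each lhp1ab library. The scale of the increase was thus not the same as the level reached, since some members remained scarce leaf transcripts in both genotypes.

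All 161 members passed the filter, all were called higher in lhp1ab by edgeR's quasi-likelihood F-test at a Benjamini-Hochberg adjusted p of 0.05, and all had every lhp1ab CPM above every WT CPM. Nothing is read from these counts, because the choice of members fixes them. Over all tested genes 36.9% were called higher and 38.5% lower, and 35.5% had every lhp1ab value above every WT value. The lowest lhp1ab library over the highest WT library also uses the values that chose the members, and is given as a description only. That quotient had a median of 23.1, was at least 16 in 110 members, and was 7.24 in the member where it was smallest.

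The largest ratio belonged to Chr2g52.3, a gene of 13 exons on the plus strand of chromosome 2 (5227695 to 5232066). It had 9, 17 and 18 counts in the WT libraries and 547, 561 and 586 CPM in the lhp1ab libraries. The ratio of the means was 821, and the interval of the ratio from pooled counts ran from 608 to 1123. The lhp1ab libraries stood close together and far above WT, while the width of the interval comes from the few WT reads. Among the 6 largest ratios it was the only gene with more than 4 exons.

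The next 2 ratios came from one stretch of chromosome 3. Chr3g279.6, a single-exon gene of 755 bases on the minus strand (27904891 to 27905645), had 6, 9 and 9 WT counts and 253, 226 and 222 CPM in lhp1ab, a ratio of 622. Chr3g279.11, a single-exon gene of 608 bases on the same strand (27919708 to 27920315), had 11, 5 and 5 WT counts and 217, 184 and 178 CPM in lhp1ab, a ratio of 579. In both, every lhp1ab library was high, replicate 1 the most. Chr10g182.19, with 2 exons on the minus strand of chromosome 10 (18213429 to 18214555), had 6, 9 and 11 WT counts and 233, 199 and 206 CPM in lhp1ab, a ratio of 525. It too was highest in lhp1ab replicate 1, without any overlap of the groups.

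The other 2 of the 6 largest ratios were also among the most abundant transcripts. Chr6g269.15, with 3 exons on the plus strand of chromosome 6 (26984840 to 26986150), had 5.89, 5.16 and 6.62 CPM in WT and 3056, 2572 and 2469 CPM in lhp1ab, a ratio of 458. Chr11g286.7, with 4 exons on the plus strand of chromosome 11 (28673868 to 28676122), had 9.39, 10.6 and 13.5 CPM in WT and 4762, 4487 and 4456 CPM in lhp1ab, a ratio of 410. These WT levels rest on more than 100 reads per library, unlike those of the 4 genes with larger ratios. Chr11g286.7 had the highest lhp1ab CPM of all members, 4568 ± 168 (SD, n = 3).

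Per kilobase of exon, the highest member in both genotypes was Chr1g313.35, with 2 exons on the minus strand of chromosome 1 (31323953 to 31324946). It had 91.5, 90.3 and 104 CPM in WT and 3978, 3340 and 3468 CPM in lhp1ab, a ratio of 37.8. It was thus plainly transcribed in WT leaf as well. In lhp1ab its level per kilobase was 3942 CPM, followed by Chr6g269.15 with 3850, Chr11g286.7 with 3074, Chr6g328.25 with 2884, Chr10g10.16 with 1251 and Chr7g261.18 with 673. The first and second of these differed by less than the spread between libraries. Chr6g328.25, a single-exon gene of 764 bases on chromosome 6 (32859343 to 32860106, plus strand), had 37.9, 35.3 and 38.8 CPM in WT and 2356, 2123 and 2131 CPM in lhp1ab, a ratio of 59.0. Chr7g261.18, whose exon measures 213 bases (chromosome 7, 26167840 to 26168052, minus strand), had 25, 27 and 32 WT counts and 166, 129 and 135 CPM in lhp1ab, a ratio of 109. The level of so short a model per kilobase depends strongly on where its ends were drawn.

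The members with the highest WT level per kilobase had ratios from 16.3 to 59.0. After Chr1g313.35 with 104 CPM per kilobase came Chr10g10.16 with 67.5, Chr6g328.25 with 48.9, Chr8g26.13 with 27.0, Chr9g112.33 with 13.6 and Chr5g6.7 with 12.3. Chr10g10.16 (chromosome 10, 1027906 to 1030206, minus strand, 4 exons) had 65.6, 65.6 and 73.9 CPM in WT and 1411, 1231 and 1158 CPM in lhp1ab, a ratio of 18.5. Chr8g26.13 (chromosome 8, 2664567 to 2666876, minus strand, 3 exons) had 38.4, 42.1 and 41.8 CPM in WT and 699, 644 and 650 CPM in lhp1ab, a ratio of 16.3. In each of these the WT libraries lay close together, so the ratio rests on many reads on both sides. Chr9g112.33 (chromosome 9, 11283247 to 11287358, minus strand, 3 exons) had 50.6, 55.5 and 48.0 CPM in WT and 883, 1001 and 1048 CPM in lhp1ab, a ratio of 19.0. Among the 13 members with the largest ratios or highest levels it was lowest, not highest, in lhp1ab replicate 1, as was Chr2g52.3.

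**Figure D2:**
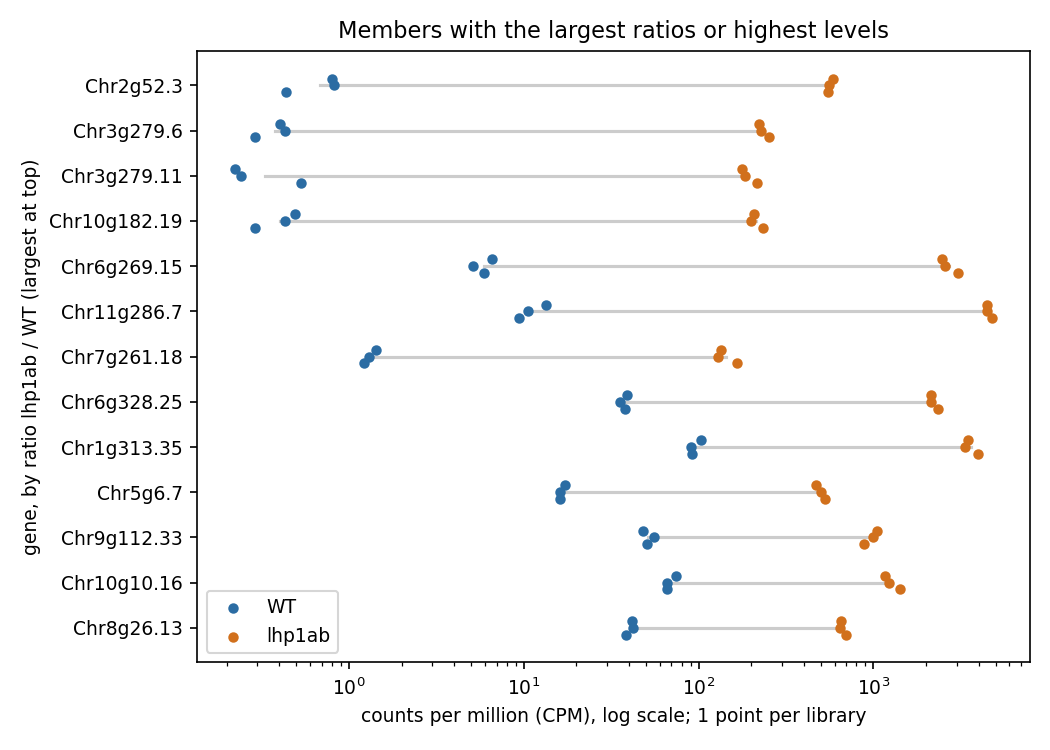
CPM on a log scale in each library for the 13 members with the 6 largest ratios or the 6 highest levels per kilobase in either genotype, ordered by ratio, with 1 point per library (blue for WT, orange for lhp1ab) and a grey line joining the means. Chr2g52.3 at the top has a ratio of 821 and Chr8g26.13 at the bottom 16.3, and in every gene the groups stand apart, as the choice of members requires.

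The members with the most exons differed widely in level. Chr7g42.9, with 24 exons the member with the most (chromosome 7, 4206076 to 4215960, minus strand), had 28, 34 and 29 WT counts and 73.4, 89.8 and 95.1 CPM in lhp1ab, a ratio of 60.1. Chr4g155.8, with 21 exons (chromosome 4, 15550553 to 15558377, plus strand), had 48, 67 and 61 WT counts and 40.8, 52.4 and 55.7 CPM in lhp1ab, a ratio of 17.96. In both, lhp1ab replicate 1 was the lowest mutant library, the opposite of the short genes above. Chr2g250.2, which with 14 exons ties with Chr3g6.4 and Chr4g237.80 and comes first by position (chromosome 2, 25043235 to 25050056, plus strand), had 4, 10 and 2 WT counts and 6.91, 6.86 and 7.37 CPM in lhp1ab. Its ratio of 27.6 became 49.6 without WT replicate 2, so it rests on that library.

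The limits cut through a continuum. The smallest ratios inside were those of Chr11g109.10 at 16.03, with 1.44 CPM in WT and 23.1 in lhp1ab, and of Chr4g36.9 at 16.1, with 7.68 and 124 CPM. Just outside stood Chr9g183.4 at 15.9, with 0.897 and 14.3 CPM, and Chr1g255.20 at 15.9, with 0.507 and 8.04 CPM. At the WT limit, Chr1g322.4 and Chr12g12.18 had a mean of 3.33 WT counts and lhp1ab levels of 7.49 and 16.7 CPM. Chr7g76.6 and Chr4g278.0, with a mean of 3.00 WT counts, missed it, although their lhp1ab levels were 20.1 and 2.42 CPM and their ratios 141 and 16.9.

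Because the same libraries chose the genes and gave the ratios, the choice was repeated 6 times, each time without 1 library, and the genes were then read in the library left out. Between 155 and 163 genes were chosen, of which 144 to 159 are among the 161 members. In the library left out, 135 to 153 of the chosen genes still stood at least 16-fold apart from the other genotype. All libraries of that other genotype took part in the choice, so only the left-out side of each ratio is free of it. These counts therefore describe the spread of single libraries and do not test the difference between genotypes. The lowest count came from leaving out WT replicate 2, where 135 of 161 reached 16-fold, the median ratio was 30.8 and 2 genes had no read. Leaving out WT replicate 3 gave a median ratio of 26.3 in that library against 30.3 in the others, and leaving out WT replicate 1 gave 36.2 against 29.0. For the lhp1ab libraries the medians in the library left out lay between 28.9 and 30.3. The lowest single ratio in a library left out was 6.14 for WT and 11.8 for lhp1ab, so the values of single members were less stable on the WT side.

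Exon structure was not used in the choice. A single exon was annotated for 43 of the 161 members, or 26.7% (exact 95% binomial interval 20.1 to 34.2), against 15.5% of all tested genes. At least 10 exons were annotated for 11 members, or 6.83%, against 19.6% of tested genes. The summed exon length had a median of 1236 bases in members and 1601 in tested genes, and 41.0% of members against 22.4% of tested genes were shorter than 1 kb. Members were therefore shorter and had fewer exons than tested genes as a whole, which were not matched to them on WT level. Over all annotated genes the median length was 1161 bases and 43.8% were shorter than 1 kb, near the values of the members.

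This structure was not particular to a ratio of 16. Single-exon genes made up 26.3% of the 818 genes with a WT mean above 3 counts that were 4-fold to 16-fold higher, and 27.7% of the 191 genes with a WT mean of 3 counts or less, at least 10 counts on average in lhp1ab and a CPM at least 16-fold higher. They made up 20.7% of the 116 genes at least 16-fold lower, with an interval of 13.7 to 29.2 that overlaps that of the members. Over all 28299 annotated genes, expressed or not, the share was 26.2%. Genes with at least 10 exons were 7.21%, 1.05% and 16.4% of those 3 sets in the same order.

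**Figure D3:**
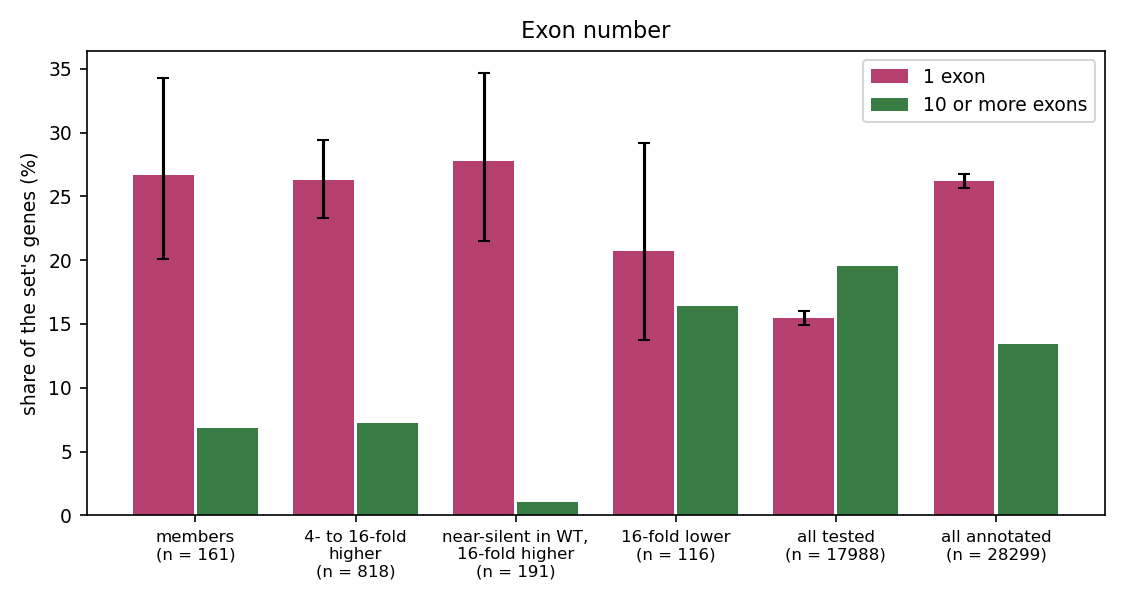
Share of genes with 1 exon and with 10 or more exons (vertical, in percent) in the members and in 5 other sets, with the number of genes under each; error bars are exact 95% binomial intervals and are drawn for the single-exon share. The members' single-exon share of 26.7% stands above the 15.5% of all tested genes and beside the 26.3% and 27.7% of the other higher sets.

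Within the members, level and ratio differed with exon number. The median ratio was 38.6 in the 43 single-exon members, 30.6 in the 37 with 2 exons, 24.6 in the 52 with 3 to 5, and 26.9 in the 29 with 6 or more. A ratio of at least 100 was reached by 8, 10, 2 and 2 genes of these classes. The median lhp1ab level per kilobase was 38.4, 20.02, 15.8 and 10.1 CPM in the same order, and the median WT level per kilobase 0.737, 0.549, 0.584 and 0.402. Without division by length, the median lhp1ab level was 27.7, 28.5, 20.9 and 25.9 CPM and the median WT level 0.487, 0.562, 0.947 and 0.687 CPM. Lower exon number thus went with a higher lhp1ab level only per kilobase, a scale on which the shorter members gain. These medians were not tested, since the levels and the ratio are what chose the genes.

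Members lay on all 12 chromosomes. Chromosome 4 held the most, 21 or 1.11% of its tested genes, and chromosome 10 the fewest, 3 or 0.286%. The highest share was 1.18% on chromosome 3, with 17 members. On the strands, 69 were on plus and 92 on minus, against 8987 and 9001 of tested genes. The split was 108 and 83 in the set with 3 WT counts or less. It was 390 and 428 in the 4-fold to 16-fold set, and 58 and 58 in the set at least 16-fold lower. Same-strand overlap with another gene model concerned 6 members (3.73%, against 3.91% of tested genes), and opposite-strand overlap concerned 5 (3.11%, against 13.5%). The low opposite-strand share was not particular to members. It was 3.66% in the set with 3 WT counts or less, 3.45% in the set at least 16-fold lower and 9.90% in the 4-fold to 16-fold set.

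Some members lay side by side. For 15 members, or 9.32%, the next tested gene on either side was another member, and 1.69% of the other tested genes had a member as next tested gene. The same measures were 21.1% and 1.73% for the set with 3 WT counts or less, 5.17% and 1.25% for the set at least 16-fold lower, and 21.8% and 8.19% for the larger set that was 4-fold to 16-fold higher. The 15 members formed 7 runs, of which 3 consist of overlapping gene models. In Chr1g282.15 with Chr1g282.14 and in Chr9g215.16 with Chr9g215.15 the spans of the models overlap on the same strand. Whether their exons overlap was not checked, so each pair may hold a single signal counted in both. Chr6g189.7 and Chr6g189.0 overlap on opposite strands. The stranded counting assigns their reads by strand, but how fully the libraries keep the strands apart was not measured. Without members that overlap another gene, 9 members remained next to another.

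The longest run was 3 single-exon genes on chromosome 7 (24968777 to 24981354), with exon lengths of 2352, 2368 and 2357 bases. Chr7g249.19 had 3, 2 and 5 WT counts and 3.91, 4.25 and 3.33 CPM in lhp1ab, a ratio of 24.6. Chr7g249.17 had 3, 4 and 3 WT counts and 2.22, 3.12 and 3.20 CPM, a ratio of 18.05. Chr7g249.8, on the opposite strand from the other genes, had 5, 8 and 5 WT counts and 4.63, 4.87 and 4.76 CPM, a ratio of 16.7. All 3 were near the limits in WT and scarce in lhp1ab, and genes of such like length may be copies among which reads are hard to assign. On chromosome 1 (17685167 to 17701815), Chr1g176.47 and Chr1g177.7 on the minus strand had 51.7 ± 4.45 and 51.5 ± 3.36 CPM in lhp1ab (SD, n = 3). Their ratios were 187 and 106, and that of Chr1g176.47 was 304.5 without WT replicate 3, which held 11 of its 18 WT reads.

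Counting genes within 50 kb of each other, 22 members fell into 9 groups. The largest lay on chromosome 3 (27888865 to 27965831), where 4 members stand among 19 annotated and 14 tested genes. Beside Chr3g279.6 and Chr3g279.11 these are Chr3g278.35, with 34, 30 and 45 WT counts and 186, 160.5 and 153 CPM in lhp1ab, and the 9-exon gene Chr3g279.21, with 15, 11 and 16 WT counts and 13.95, 16.5 and 16.3 CPM. The ratios were 97.7 and 23.7. The other 10 tested genes of the stretch did not all move one way: 5 were called higher and 3 lower. The largest of these increases was that of Chr3g279.12, with a log2 fold change of 3.69 ± 0.174 (SE) and an adjusted p of 1.05e-08 by edgeR's quasi-likelihood test. The largest decrease was that of Chr3g279.14, which fell by 1.45 ± 0.197 on the log2 scale (SE, adjusted p of 5.08e-05 by the same edgeR test). Both are single-exon genes on the minus strand, as are Chr3g279.6 and Chr3g279.11.

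On chromosome 5 (582040 to 603349), all 4 genes of a stretch on the minus strand have 4 exons, and 3 of them are members. Chr5g5.23 had 177, 164 and 204 WT counts and 795, 777 and 712 CPM in lhp1ab, a ratio of 89.1. Chr5g6.5 had 113, 113 and 171 WT counts and 202, 206 and 192 CPM, a ratio of 32.3. Chr5g6.7 had 330, 336 and 383 WT counts and 530, 504 and 471 CPM, a ratio of 30.5. The gene between the last pair, Chr5g6.6, is no member and was called higher, from 1.02 to 15.3 CPM, with a log2 fold change of 3.95 ± 0.167 (SE) and an adjusted p of 4.64e-09 by edgeR's quasi-likelihood test. With exon lengths of 1325 to 1614 bases, these genes stood at different levels within each genotype while all were higher in lhp1ab.

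The counts of genes beside the members were not used in the choice, and edgeR's fit over all 17988 genes was read for them. The 302 non-member genes that are the next tested gene of a member were called higher in 141 cases (46.7%), lower in 102 (33.8%) and neither in 59. Among all 17827 tested non-members, 36.4% were called higher and 38.9% lower. At least 2-fold higher and called were 89 neighbours (29.5%, against 15.9% of non-members), and at least 2-fold lower and called were 33 (10.9%, against 14.6%). The median log2 fold change was 0.15 in neighbours and -0.03 in all tested non-members. The shift of the median was small, and the difference sat in the upper part of the neighbours, whose upper quartile was 1.28 against 0.59.

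Larger increases beside members fall mostly into the other higher sets by the way those sets are defined. Only their shares, set beside those of all non-members, are read here. Of the 302 neighbours, 16 (5.30%, against 0.982% of non-members) belonged to the set with 3 WT counts or less and an increase of at least 16-fold, and 31 (10.3%, against 4.57%) to the 4-fold to 16-fold set. None was in the set at least 16-fold lower, which holds 0.651% of non-members, too few for a count of 0 to set neighbours apart. Counting calls of any size, 46 members had no flanking non-member called higher, 85 had 1 and 30 had 2. These counts are per member, over up to 2 flanking genes. The 36.4% of all non-members called higher is a share per gene and is not directly comparable. The neighbours of the near-silent set were called higher in 44.8% of cases, those of the 4-fold to 16-fold set in 41.2%, and those of the set at least 16-fold lower in 37.5%. At least 2-fold higher were 29.9%, 19.6% and 16.5% of these neighbours in the same order, beside 29.5% of the members' neighbours. At that limit the near-silent set and the members thus stood alike. The differences among these shares were not tested.

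The share of genes called at least 2-fold higher was lower farther from the member, counted in genes. It was 29.5% at the first tested gene, 25.2% at the second and 18.1% at the third, and lay between 12.7% and 19.9% at positions 4 to 10, around the 15.9% of all non-members. The share called higher at any size was 46.7%, 42.9% and 39.0% at the first 3 positions and ran between 31.5% and 43.0% after them in no order, with 43.0% at position 7. By the gap in bases to the first gene, 31.25% were at least 2-fold higher under 2 kb, 27.6% from 2 to 10 kb and 30.7% at 10 kb or more. By orientation, and at any size, 58.1% of the 62 neighbours that lie upstream on the opposite strand, head to head with the member, were called higher, and 41.1% of the 56 that lie tail to tail. These shares rest on 36 and 23 genes and were not tested against each other. On the same strand, 43.7% of upstream and 45.4% of downstream neighbours were called higher. At least 2-fold higher were 30.6% head to head and 21.4% tail to tail, and on the same strand 33.3% upstream and 29.9% downstream. Head to head thus did not stand out at 2-fold, and these shares were not tested either.

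**Figure D4:**
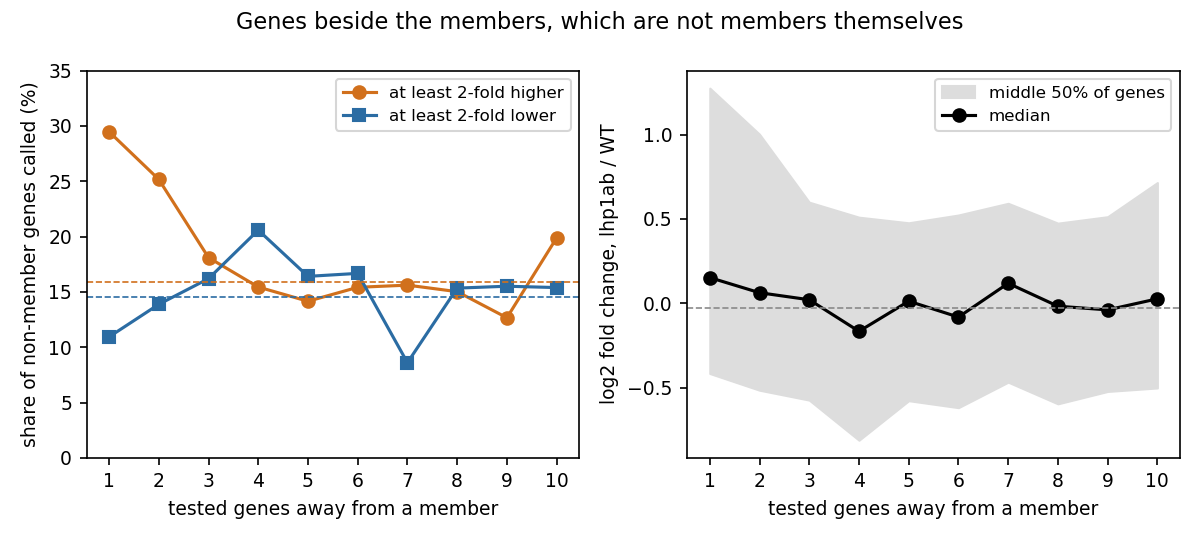
Non-member genes at tested positions 1 to 10 from a member. Left, the share called at least 2-fold higher (orange) or lower (blue) in lhp1ab, in percent; right, the median log2 fold change with the middle 50% of genes shaded; dashed lines give the same values over all tested non-members. The share at least 2-fold higher is 29.5% at the first gene and 15.4% at the fourth.

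The 4 neighbours called higher with the largest fitted fold changes were all at or near silence in WT. The definition of a member fixes this, since a gene with more WT reads and such an increase would be a member. Chr6g144.42 (chromosome 6, 14467957 to 14470085, plus strand) had 2, 5 and 0 WT counts and 134, 115 and 112 CPM in lhp1ab. The ratio from pooled counts was 1095 (exact 95% interval 531 to 2724), and the adjusted p by edgeR's quasi-likelihood test was 1.05e-10. The nearest member, 50357 bases downstream, is Chr6g145.9, with 4, 4 and 6 WT counts and 83.3, 66.9 and 73.0 CPM in lhp1ab, and the member after it is Chr6g145.11, with 25, 24 and 24 WT counts and 407, 347 and 344 CPM. These 3 genes on the plus strand have 2 exons each, and the members' ratios were 340 and 319. All 3 were high in every lhp1ab library and highest in replicate 1.

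Chr7g261.19, which lies 1528 bases upstream of the member Chr7g261.18 on the same strand, had no read in WT and 15.7, 11.9 and 12.7 CPM in lhp1ab. Taking 3 counts over the WT group as the floor, it was at least 285-fold higher, with an adjusted p of 4.28e-08 by edgeR's quasi-likelihood test. Chr11g230.31, 3118 bases from the member Chr11g230.32, also had no WT read, with 4.09, 4.36 and 3.06 CPM in lhp1ab, at least 81.5-fold higher with an adjusted p of 7.55e-07 by the same edgeR test. Chr6g33.7 had a single WT read in the 3 libraries and 12.0, 11.8 and 9.78 CPM in lhp1ab, a ratio from pooled counts of 715 (interval 128 to 28278) and an adjusted p of 2.69e-09 by the same edgeR test. In all of these the groups did not overlap, and they missed the definition of a member only through their WT counts. A neighbour can also go the other way: Chr6g328.26, 14204 bases from the abundant member Chr6g328.25 and chosen after its values were seen, fell from 60.9 ± 2.42 to 3.84 ± 0.244 CPM (SD, n = 3; adjusted p of 4.87e-11 by edgeR's quasi-likelihood test).

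Among the libraries of a genotype the members' median spread was slightly above that of all tested genes, which was not tested. The genes compared share a minimum count but were not matched on level above it. The coefficient of variation (CV, the SD as a percentage of the mean) of the lhp1ab CPM had a median of 7.79% in the 142 members with a mean of at least 100 lhp1ab counts and 6.85% in the 13214 tested genes with such a mean. In WT the medians were 7.99% in 18 members and 5.18% in tested genes. WT replicate 3 was the highest WT library in 11 of these 18 members (61.1%), against 40.4% of tested genes. The widest spread in lhp1ab was that of Chr6g189.0, with 7.81, 12.98 and 5.93 CPM and a CV of 40.9%, and the next that of Chr3g6.4, with 20.6, 30.1 and 33.0 CPM and 23.4%. Both overlap another gene on the opposite strand. The narrowest were Chr1g32.13, with 12.5, 12.6 and 12.5 CPM and a CV of 0.321%, and Chr8g52.3, with 19.8, 19.5 and 19.9 CPM and 1.03%.

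The spread in lhp1ab had a direction. Replicate 1 was the highest lhp1ab library in 75 of the 142 members (52.8%), against 33.2% of tested genes. Set against the mean of the other lhp1ab libraries, replicate 1 had a median log2 difference of 0.18 in single-exon members, 0.17 in members with 2 exons, 0.04 with 3 to 5 and -0.08 with 6 or more. The same order appeared in tested genes, from 0.04, 0.03 and 0.02 to -0.10. Replicate 1 thus stood higher the fewer the exons, in members and in general. The order was the same with other scalings, but the sign for members with 6 or more exons was not, at -0.03 with TMM and 0.01 with RLE scaling. Single-exon members stood at 0.23 and 0.27 under these scalings, against 0.09 and 0.13 in tested genes. The part of RNA quality or of library preparation in this pattern was not tested. The choice of members did not hang on that library: without lhp1ab replicate 1, 163 genes were chosen, of which 159 are members.

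**Figure D5:**
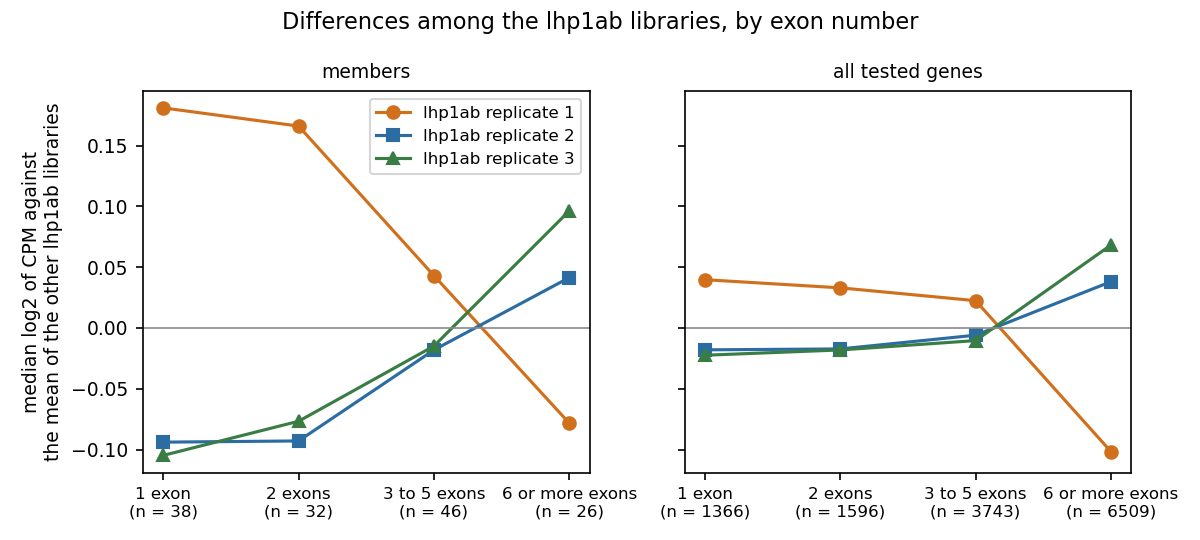
Median log2 difference of each lhp1ab library from the mean of the other lhp1ab libraries (vertical), by exon number, for members (left) and all tested genes (right) with a mean of at least 100 lhp1ab counts. Replicate 1 lies at 0.18 for single-exon members and -0.08 for those with 6 or more exons (0.01 with RLE scaling), and at 0.04 and -0.10 in tested genes.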

How the data were processed

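RNA was poly(A)-selected from leaf and made into strand-specific libraries, 3 per genotype, per the labels' protocols. The deposited files hold raw counts per gene. Per the file headers, the authors ran featureCounts 1.6.4 on exons grouped by gene, with strand setting 2, a minimum mapping quality of 30, reads that overlap several genes counted for each and multi-mapping reads allowed. Counts of overlapping genes on 1 strand are therefore uncertain. Whether multi-mapping reads passed the quality minimum depends on aligner settings that are not given, so counts of near-identical copies are uncertain too. The submitters' processing notes also name Trimmomatic 0.38, STAR, DESeq2 and R 3.5.1, with the STAR version not given in the sources used here.

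CPM were computed on library totals of 15335390 to 22366054 counts. Calls came from edgeR 4.0.16 (R 4.3.3): quasi-likelihood F-test, two-sided, TMM normalization, the default filter on low counts, no covariates, and a Benjamini-Hochberg adjusted p of 0.05 over 17988 genes. The standard error (SE) is the log2 fold change over the root of the F statistic. The fit was tried on simulated data in which 200 of 17988 genes were changed, 50 at each fold. It recovered 78% at 1.5-fold, 92% at 2-fold, 96% at 4-fold and 100% at 16-fold. Far more genes were called in the real data, so the simulation does not show how the fit behaves there. Alternatives were DESeq2 1.42.0, other scalings and filters, a replicate block, other limits and leaving out each library. The members and all lists were chosen with earlier results of these data known.

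Named members were the 6 largest ratios, the 6 highest levels per kilobase in each genotype, the 3 with the most exons (a tie at 14 broken by position), the 2 largest and 2 smallest CV in lhp1ab (mean of at least 100 counts), the 3 longest runs by number of genes (ties among 6 runs of 2 broken by chromosome and start), and 2 genes on each side of both limits; among neighbours, the 4 largest increases. Genes of the other close groups were named for their position. Gene lists and cell type markers were not examined, because the identifiers carry no names.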

Additional observations from a re-analysis of the deposited data

How the results depend on the processing

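The number of members follows its limits: 390 genes passed at 8-fold, 73 at 32-fold, 96 with a WT mean above 10 counts and 337 with a WT mean above 0. Scaling by TMM gave 170 and by RLE 173, and leaving out 1 library gave 155 to 163. The single-exon share was 34.2% at 32-fold and 22.9% to 27.7% under the other settings, with 25.5% to 27.7% when 1 library was left out. Members next to another numbered 56 at 8-fold, 9 without members that overlap another gene, and 13 to 18 when 1 library was left out. Neighbours called higher numbered 119 to 144 over all settings (43.8% to 47.7%, against 31.1% to 37.8% of tested non-members), and 135 to 144 (44.7% to 47.7%) when 1 library was left out. The share of members highest in lhp1ab replicate 1 was 64.1% with TMM and 69.0% with RLE, against 43.5% and 50.7% of tested genes. Of 248 recomputed ratios of 31 named members, 0 reversed and 13 fell under 16. The choice of members all but fixes the 0, since in every member all lhp1ab CPM stood above all WT CPM. Nothing is read from it.

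Same-numbered WT and lhp1ab libraries deviated together with correlations of 0.0006, 0.12 and -0.18, and some libraries correlated more with another number. The data thus showed no clear pairing by number, but with 3 libraries per genotype they cannot exclude it. With the number as a replicate block, 140 neighbours (46.4%) were called higher, and over all tested genes 6514 were called higher and 6783 lower, against 6646 and 6933 without it. Few WT counts limit the precision of ratios, since 65 members rest on a WT mean of 10 counts or less.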
